A study of Mus musculus with 6 samples.

Results

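Rhox5, Rhox6 and Rhox9 of the X-linked reproductive homeobox cluster and Slc25a31, Taf7l, Tuba3a, Brdt and Tex101 are testis genes. The Rhox genes are also known from other tissues, as given below. All 8 genes are known to be kept silent by DNA methylation in most somatic cells. Their transcripts were followed in undifferentiated mouse iPSCs through every probe set of the array that names 1 of these genes alone. Of the 8 genes, 7 had such a probe set, out of 18193 genes on the array with a probe set of their own. These 7 genes were covered by 9 of the 45037 probe sets analysed, and Tuba3a was reached only through 2 probe sets shared with its paralogue Tuba3b, which are given apart from the others.

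The (+)/(+) iPSCs (clones 4, 5 and 6) had received 3i during both the reprogramming phase and the maintenance phase, and the (-)/(+) iPSCs (clones 1, 2 and 3) only during maintenance. 3i is a mixture of CHIR99021, which inhibits GSK3, PD184352, which inhibits MEK and thereby ERK activation, and SU5402, which inhibits the FGF receptor. All 6 clones came from embryonic fibroblasts that carry a Nanog-GFP reporter, were reprogrammed with retroviral Oct3/4, Sox2, Klf4 and c-Myc (with dsRed as a transgene control) and were grown on feeder cells in serum and LIF, so that no clone is free of 3i and fibroblast RNA can be present in any of them. Each clone was measured once on a 1-colour Affymetrix array, and the comparison asks whether 3i during reprogramming left a difference in expression between clones maintained in the same way.

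DNA methylation at CpG dinucleotides of a promoter recruits repressive proteins and keeps many germline genes silent once it has been laid down around implantation. In germ cells, in the early embryo and in naive pluripotent cells, where MEK and GSK3 inhibitors lower DNA methylation, such genes can be transcribed. Rhox5 is a classical methylation-dependent gene of mouse embryonic stem cells, and Slc25a31, Taf7l and Brdt belong to the meiotic and later spermatogenic programme. DNA methylation itself was not measured on these arrays. The study profiled it apart from them, by sequencing captured methylated DNA (MBD-seq), and reports more of it in the (+)/(+) than in the (-)/(+) iPSCs. Those data were not used here.

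The promoters of Slc25a31, Taf7l, Rhox5 and Brdt are shown because the methylation known to act on these genes lies at CpG dinucleotides, which are in capitals here, and because the 4 genes had the only probe sets of their own that were bright enough for a test. Each window holds 250 bases before and 50 bases after the start of the gene, in the direction of transcription, from RefSeq on GRCm38.p6. The Slc25a31 window is chr3:40708621-40708920 on the plus strand, that of Taf7l chrX:134476441-134476740 on the minus strand, that of Rhox5 chrX:37754358-37754657 on the plus strand and that of Brdt chr5:107330944-107331243 on the plus strand.
Slc25a31: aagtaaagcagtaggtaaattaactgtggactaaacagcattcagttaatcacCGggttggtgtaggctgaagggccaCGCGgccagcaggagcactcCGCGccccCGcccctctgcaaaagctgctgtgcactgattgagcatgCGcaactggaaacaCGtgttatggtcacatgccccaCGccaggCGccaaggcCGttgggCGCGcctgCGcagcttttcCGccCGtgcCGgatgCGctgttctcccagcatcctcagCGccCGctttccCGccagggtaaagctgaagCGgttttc
Taf7l: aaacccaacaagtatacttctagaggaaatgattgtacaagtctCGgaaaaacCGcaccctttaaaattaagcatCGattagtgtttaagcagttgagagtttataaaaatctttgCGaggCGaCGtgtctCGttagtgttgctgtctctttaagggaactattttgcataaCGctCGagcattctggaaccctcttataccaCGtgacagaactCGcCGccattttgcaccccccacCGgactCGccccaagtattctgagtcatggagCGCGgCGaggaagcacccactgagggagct
Rhox5: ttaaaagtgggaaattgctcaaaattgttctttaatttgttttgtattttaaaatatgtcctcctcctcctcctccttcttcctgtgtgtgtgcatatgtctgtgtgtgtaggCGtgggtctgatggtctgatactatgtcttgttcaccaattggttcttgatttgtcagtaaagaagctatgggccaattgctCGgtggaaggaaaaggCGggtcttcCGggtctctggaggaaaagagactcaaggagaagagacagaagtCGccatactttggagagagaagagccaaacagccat
Brdt: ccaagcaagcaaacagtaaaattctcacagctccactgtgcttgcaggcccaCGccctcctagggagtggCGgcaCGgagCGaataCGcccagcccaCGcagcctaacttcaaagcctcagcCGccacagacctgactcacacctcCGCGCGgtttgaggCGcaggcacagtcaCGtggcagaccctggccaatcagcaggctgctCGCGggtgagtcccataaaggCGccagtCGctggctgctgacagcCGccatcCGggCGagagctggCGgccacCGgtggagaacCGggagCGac

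The windows differed widely in their number of CpG dinucleotides. Brdt had 23, Slc25a31 22, Tex101 19, Taf7l 17 and Tuba3a 12, against a median of 7 over the 32851 promoter windows of the annotation. Rhox5 had 5, and 62% of all windows held at least as many, against 21.5% for Brdt and 23.1% for Slc25a31. Rhox5 is known to be transcribed from a proximal and a distal promoter, of which this window can show only the annotated start. For Rhox6 and Rhox9 no promoter window was used here.

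The palindrome CACGTG, an E-box that Mga and Max can bind, was found in 3 of the 6 member windows. Its first base lay 93 bases before the start of Slc25a31, 49 before that of Taf7l and 78 before that of Brdt, and the palindrome was present in 7.15% of all windows. The E2F motif TTCCCGCC, searched on both strands, was present in the windows of Slc25a31 and Tuba3a and in 2.19% of all windows. The Rhox5 and Tex101 windows held neither of these words. Both words hold a CpG, and the 6 member windows had a median of 18 CpG dinucleotides against 7 over all windows. The shares over all windows are therefore not a like comparison. E2f6, Mga and Max are subunits of a Polycomb complex (PRC1.6) known to repress germline genes, and a match of letters is given here as a description of the sequence only.

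Expression was given by the authors as a MAS 5.0 signal, a linear intensity per probe set that was scaled to the same trimmed mean on each array. Fold changes are on the scale of log2(signal + 16), (+)/(+) over (-)/(+), which understates the change of dim probe sets, and were fitted with limma over all 22518 probe sets whose mean log2 value was above the median of the array, which corresponds to a signal of about 67.2. A call was an adjusted p (Benjamini-Hochberg over the whole table) under 0.05. Over the whole table, 305 probe sets were higher (1.35%) and 398 lower (1.77%) in the (+)/(+) iPSCs. With each array scaled to a common median the split was 917 higher and 238 lower, and the median log2 fold change of all tested probe sets was 0.10, against -0.05 in the values as deposited.

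Of the 9 member probe sets, 5 passed this filter (for Slc25a31, Taf7l, Rhox5 and Brdt, the last with 2), 2 were called higher in the (+)/(+) iPSCs and 0 lower, beside the 1.35% and 1.77% of all tested probe sets. The calls were those of Slc25a31 and Taf7l. In 3 of the 9 (Slc25a31, Taf7l and Rhox6) all (+)/(+) clones lay above all (-)/(+) clones, which was so for 7.20% of all probe sets, and in 0 they lay below, which was so for 12.9%. In the other 6 the groups overlapped.

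Slc25a31 encodes an ADP/ATP carrier of the inner mitochondrial membrane (ANT4) that male germ cells need in meiosis. Its signal was 434, 715 and 591 in (+)/(+) clones 4, 5 and 6, against 260, 145 and 278 in (-)/(+) clones 1, 2 and 3. The groups did not overlap, and clone 2 was the lowest of all. The (+)/(+) clones averaged 580 ± 141 and the (-)/(+) clones 228 ± 72.7 (SD, n = 3 each), 2.55-fold apart. The log2 fold change was 1.31 (standard error 0.25, 95% interval 0.76 to 1.87, adjusted p = 0.027 from limma). The direction held whichever clone was left out, whereas the adjusted p was 0.090 without clone 5 and 0.12 without clone 6.

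Taf7l encodes a germ-cell paralogue of Taf7, a subunit of the general transcription factor TFIID, and lies on the X chromosome. Its signal was 371, 469 and 427 in (+)/(+) clones 4, 5 and 6, against 281, 177 and 213 in (-)/(+) clones 1, 2 and 3. The lowest (+)/(+) clone thus stood above the highest (-)/(+) clone, and clone 2 was again the lowest. The (+)/(+) clones averaged 423 ± 49.1 and the (-)/(+) clones 224 ± 52.6 (SD, n = 3 each), 1.89-fold apart. The log2 fold change was 0.89 (standard error 0.18, 95% interval 0.48 to 1.30, adjusted p = 0.035 from limma). The call stood without clone 1 (adjusted p = 0.013) and was lost when any other clone was left out, with adjusted p between 0.067 (without clone 4) and 0.14 (without clone 6).

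**Figure D1:**
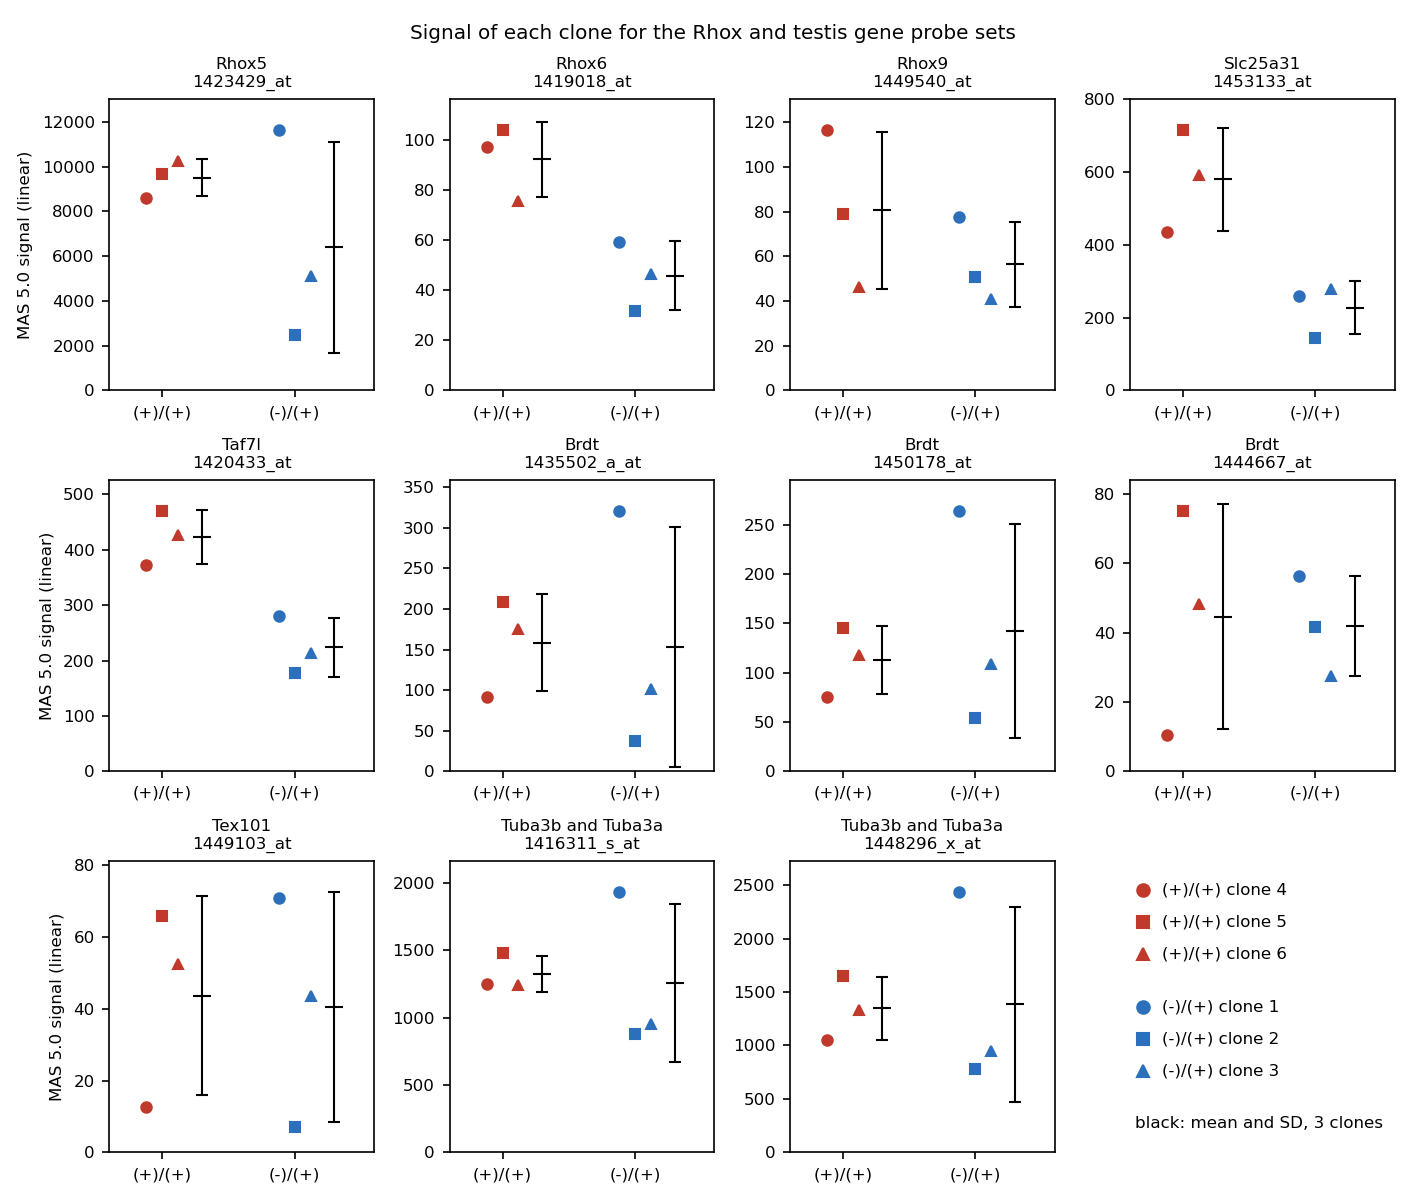
MAS 5.0 signal (y axis, linear from 0, its own scale in each panel) of each (+)/(+) clone (red) and each (-)/(+) clone (blue) for the 9 probe sets of the member genes and the 2 shared by Tuba3b and Tuba3a, with the mean and SD of 3 clones in black. In the panels of Slc25a31, Taf7l and Rhox6 all red points lie above all blue points, and in those of Rhox5, Brdt (the 2 brighter probe sets), Tex101 and Tuba3 clone 1 is the highest and clone 2 the lowest.

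Rhox5 (also called Pem), a homeobox gene expressed in embryonic stem cells, extraembryonic tissue and Sertoli cells, gave the brightest signals of the member probe sets. Its signal was 8607, 9653 and 10246 in (+)/(+) clones 4, 5 and 6, against 11630, 2464 and 5107 in (-)/(+) clones 1, 2 and 3. The (+)/(+) clones were close together, while the (-)/(+) clones held both the highest and the 2 lowest values of the 6. The highest signal was 1.19 times the lowest among the (+)/(+) clones and 4.72 times among the (-)/(+) clones. As a description, a ratio of at least 4.72 among the (-)/(+) clones was found in 81 of the 22518 tested probe sets (0.360%), and in 14 of the 10024 with a mean signal above 500 (0.140%). It was not particular to Rhox5. Among the other tested member probe sets the ratio was higher for both of Brdt (8.46 and 4.83) and lower for Slc25a31 (1.93) and Taf7l (1.59).

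For Rhox5 the (+)/(+) clones averaged 9502 ± 830 and the (-)/(+) clones 6400 ± 4718 (SD, n = 3 each), and the difference did not pass the test (log2 fold change 0.84, standard error 0.41, 95% interval -0.06 to 1.75, adjusted p = 0.27 from limma). Clone 1 decided the call. Without it the log2 fold change was 1.41 (adjusted p = 0.014), and without clone 2 it was 0.30 (adjusted p = 0.58).

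Rhox6 and Rhox9 (also called Psx1 and Psx2), neighbouring homeobox genes known from placenta and germ cells, had signals near the median of the array and did not pass the filter. Rhox6 had 97.1, 104 and 75.4 in (+)/(+) clones 4, 5 and 6, against 59.4, 31.6 and 46.4 in (-)/(+) clones 1, 2 and 3. The groups did not overlap (exact permutation test, two-sided, p = 0.1, the smallest that 3 clones against 3 can give), with a log2 fold change of 0.82 in the fit without a filter (adjusted p = 0.22). Rhox9 had 117, 79.2 and 46.2 in the (+)/(+) clones, against 77.6, 50.9 and 40.9 in the (-)/(+) clones. Its groups overlapped (log2 fold change 0.38, exact permutation test, two-sided, p = 0.4).

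Of 29 other Rhox genes, most of them near-identical copies, only Rhox13 had a probe set of its own. Rhox13, a germ-cell member of the cluster, had 377, 505 and 326 in (+)/(+) clones 4, 5 and 6, against 386, 97.1 and 189 in (-)/(+) clones 1, 2 and 3. As for Rhox5, clone 1 lay within or above the range of the (+)/(+) clones and clone 2 was the lowest of the 6. The difference did not pass (log2 fold change 0.97, adjusted p = 0.17) and passed without clone 1 (1.44, adjusted p = 0.021). Across all the fits with 1 clone left out, the log2 fold change fell to as little as 0.52, and the adjusted p from limma rose to as much as 0.35.

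Brdt encodes a testis-specific bromodomain protein of the BET family that reads acetylated histones in meiotic and haploid cells. The brightest of its 3 probe sets had 92.1, 208 and 176 in (+)/(+) clones 4, 5 and 6, against 320, 37.9 and 101 in (-)/(+) clones 1, 2 and 3. Clone 1 was the highest and clone 2 the lowest of the 6, so that the (-)/(+) clones enclosed the (+)/(+) clones on both sides. The same order of these 2 clones was found with the middle probe set, at 75.9, 145 and 118 for the (+)/(+) clones, against 264, 54.6 and 109 for the (-)/(+) clones.

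Neither of these Brdt probe sets passed the test. The log2 fold change was 0.37 (95% interval -0.82 to 1.57, adjusted p = 0.72) for the brightest and -0.11 (95% interval -1.04 to 0.83, adjusted p = 0.91) for the middle one, so that either direction remained possible at this spread. The sign was not stable, at -0.25 without clone 2 for the brightest, and at 0.03 after quantile normalization for the middle one. The dimmest Brdt probe set was below the filter, at 10.6, 75.0 and 48.2 for the (+)/(+) clones, against 56.4, 41.6 and 27.5 for the (-)/(+) clones.

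Tex101, which encodes a cell-surface glycoprotein of germ cells needed for fertile sperm, was also below the filter. Its signal was 12.6, 66.0 and 52.5 in (+)/(+) clones 4, 5 and 6, against 70.8, 7.11 and 43.7 in (-)/(+) clones 1, 2 and 3. The groups overlapped fully (log2 fold change 0.14, exact permutation test, two-sided, p = 0.8).

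Tuba3a and Tuba3b encode near-identical alpha-tubulins of the testis, and the 2 probe sets that name them together cannot tell their transcripts apart. One of them had 1250, 1480 and 1241 in (+)/(+) clones 4, 5 and 6, against 1931, 881 and 956 in (-)/(+) clones 1, 2 and 3. Clone 1 was again the highest and clone 2 the lowest (log2 fold change 0.16, adjusted p = 0.74). The same clones were the extremes of the other, at 1056, 1651 and 1330 for the (+)/(+) clones, against 2434, 775 and 948 for the (-)/(+) clones (log2 fold change 0.12, adjusted p = 0.87). A probe set for Tuba3b alone was dim, between 1.72 and 22.3 among the (+)/(+) clones and 5.02 to 16.1 among the (-)/(+) clones.

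**Figure D2:**
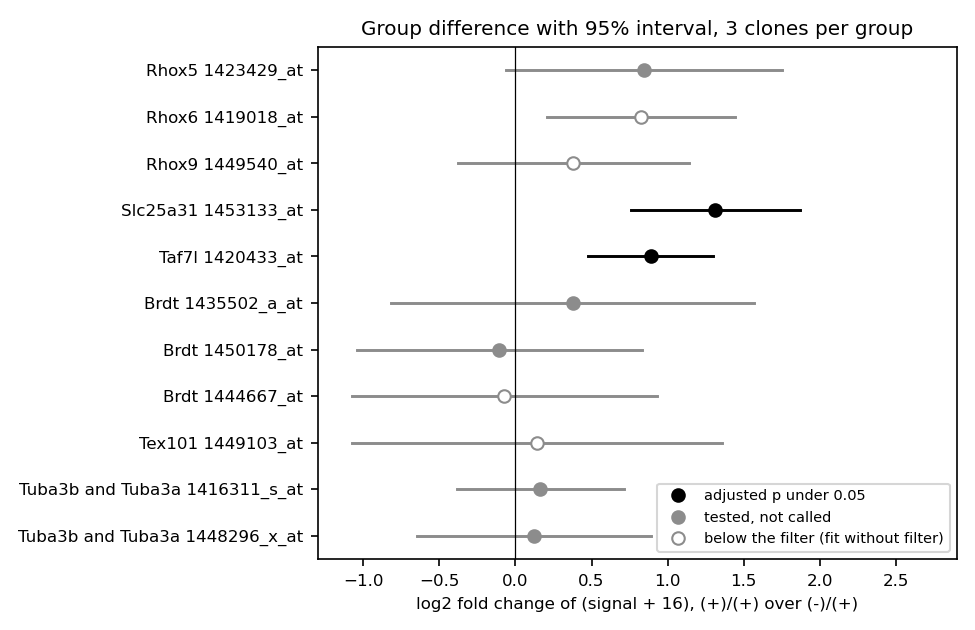
Log2 fold change of signal + 16, (+)/(+) over (-)/(+) (x axis), with the 95% interval from limma for each probe set (rows), 3 clones per group. Filled black points (Slc25a31 at 1.31, Taf7l at 0.89) passed the test, grey points did not, and open points were below the filter and come from the fit without it. The interval of Rhox5 reaches from -0.06 to 1.75 and those of Brdt and Tex101 extend well to both sides of 0.

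The order of the clones differed between the genes. In Slc25a31, Taf7l and Rhox6 the groups did not overlap, whereas in Rhox5, Tex101 and the 2 brighter Brdt probe sets the (-)/(+) clones held both the highest value (clone 1) and the lowest (clone 2). Clone 2 was the lowest of the 6 in 7 of the 9 member probe sets, against 16% of all probe sets, in Rhox5, Rhox6, Slc25a31, Taf7l, Tex101 and both tested Brdt probe sets. The exceptions were Rhox9, lowest in clone 3, and the dim Brdt probe set, lowest in clone 4. Clone 1 was the highest in 4 of the 9 (Rhox5, Tex101 and both tested Brdt probe sets), against 19.8% of all probe sets, and clone 5 in 4 others (Rhox6, Slc25a31, Taf7l and the dim Brdt probe set).

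On the log2 scale, clone 2 lay 1.88 below the median of the 6 clones for Rhox5, 1.48 for Brdt (brightest probe set), 1.47 for Tex101 and 1.18 for Slc25a31. Clone 1 lay 1.17 above it for Brdt and 0.35 above it for Rhox5, but 0.40 below it for Slc25a31 and 0.19 below it for Taf7l. The deviation of clone 1 thus differed in sign between these genes, while that of clone 2 was downward in each of these genes.

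**Figure D3:**
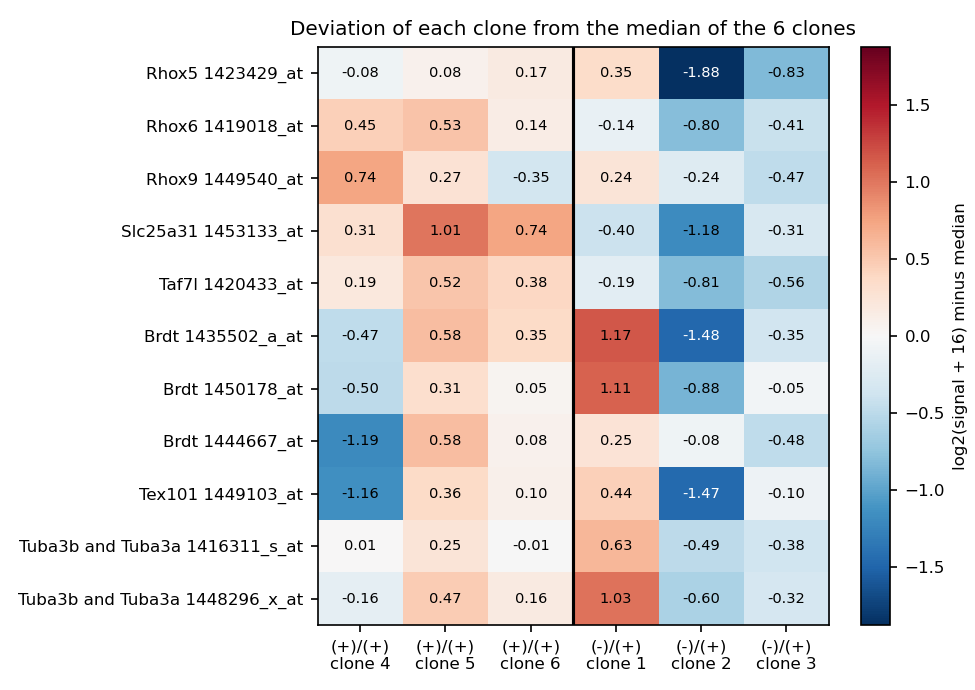
Deviation of each clone from the median of the 6 clones in log2(signal + 16) (colour and printed value), for the member probe sets and the 2 shared by Tuba3b and Tuba3a (rows), with (+)/(+) clones 4, 5 and 6 left of the black line and (-)/(+) clones 1, 2 and 3 right of it. The column of clone 2 is below the median in every row, from -0.08 to -1.88, and clone 1 is above it for Rhox5, Rhox9, Brdt, Tex101 and Tuba3.

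These deviations were set against those of the surrounding genes, since clones can gain or lose stretches of chromosome. Over tested genes with a mean signal above 500, the median shift of each clone lay between -0.04 and 0.04 on chromosomes X (212 genes), 3 (311 genes), 5 (386 genes) and 7 (393 genes), which hold the members with a probe set of their own. Over the 20 such genes nearest to Slc25a31, Taf7l, Brdt and Tex101 it lay between -0.06 and 0.06 in every clone. Around the Rhox genes it was -0.12 in clone 2 and -0.03 in clone 1, beside -1.88 and 0.35 for Rhox5 itself.

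Around Tuba3a on chromosome 6 the median shift was 0.23 in clone 1 and 0.21 in clone 2, and around Tuba3b, on the same chromosome, it was -0.10 in clone 1 and 0.19 in clone 2, beside a high value of the shared probe sets in clone 1 and a low value in clone 2. Whole chromosomes stood apart elsewhere, with a median shift of 0.41 in clone 4 on chromosome 8 and of 0.27 in clone 1 on chromosome 11. The part of these shifts in the values was not tested.

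As a description over the 6 arrays, Slc25a31 and Taf7l varied together (Pearson's r = 0.96), as did Rhox6 and Taf7l (0.95), Brdt and Tex101 (0.91) and Rhox5 and Brdt (0.90), while r was 0.55 between Slc25a31 and Brdt and 0.60 between Taf7l and Brdt (brightest probe sets). The arrays share their scaling, and 6 points in 2 groups leave such values imprecise. Among 11173 other tested genes, the profiles most like that of Taf7l were those of Sycp1 (r = 0.996), Gca (0.995) and Rbm47 (0.991). Sycp1 encodes the transverse filament of the synaptonemal complex that joins paired chromosomes in meiosis.

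The profiles most like that of Slc25a31 were those of Prps1 (r = 0.995), an enzyme of phosphoribosyl pyrophosphate synthesis, Pramel12 (0.993), of the Prame-like family, and Adi1 (0.991), an enzyme of methionine salvage. For Rhox5 they were those of Ube2a (r = 0.999), an X-linked ubiquitin-conjugating enzyme, Greb1l (0.992) and 1700013H16Rik (0.991). Ube2a had a like order of clones but a far smaller spread, with its highest (-)/(+) clone at 1.27 times the lowest, and 1700013H16Rik a larger one, at 876, 1703 and 1408 for the (+)/(+) clones, against 2604, 43.3 and 403 for the (-)/(+) clones. For Brdt the most alike were Zdhhc20 (r = 0.995), Stoml1 (0.992) and Pou3f1 (0.990).

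Other germline genes that are known to be silenced by promoter methylation were examined with the same fit. Of 35 listed, 28 had a probe set of their own and 22 were bright enough to be tested, of which 4 were higher (Tex11, Sycp3, Sycp1 and Ddx4) and 0 lower in the (+)/(+) iPSCs, against 1.55% higher and 1.41% lower among the 11177 tested genes. Their median log2 fold change was 0.63, and 18 of 22 were above 0, beside a median of -0.05 over all tested genes. In 9 all (+)/(+) clones lay above all (-)/(+) clones and in 2 below, against 10.5% and 15.8% of tested genes. The list overlaps one that earlier analysis of these arrays had already described, and it is no independent evidence.

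Tex11, an X-linked gene that promotes recombination in meiosis, had 452, 596 and 560 in (+)/(+) clones 4, 5 and 6, against 266, 224 and 218 in (-)/(+) clones 1, 2 and 3. The groups were well apart (log2 fold change 1.13, standard error 0.16, adjusted p = 0.0090). Sycp1 had 827, 1123 and 1037 in the (+)/(+) clones, against 624, 291 and 404 in the (-)/(+) clones (log2 fold change 1.21, adjusted p = 0.029). Sycp3, which builds the axes of meiotic chromosomes, had 1478, 2345 and 2490 in the (+)/(+) clones, against 1166, 974 and 829 in the (-)/(+) clones (log2 fold change 1.05, adjusted p = 0.025).

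Ddx4, the germ-cell RNA helicase also called Vasa, had 1282, 1690 and 1200 in (+)/(+) clones 4, 5 and 6, against 993, 540 and 566 in (-)/(+) clones 1, 2 and 3 (log2 fold change 1.01, adjusted p = 0.041). In all 4 genes the groups did not overlap, as in Slc25a31 and Taf7l. The number of calls in the list was 9 without clone 1, 3 without clone 2, 1 without clone 3, 2 without clone 4 and 0 without clone 5 or clone 6.

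Of the 5 brightest genes of this list, Dazl, Stra8, Tex19.1 and Cyct overlapped between the groups and were lowest in clone 2, like Rhox5 and Brdt, and Dnmt3l, given further on, was highest there. Dazl, an RNA-binding protein of germ cells, had 2815, 4867 and 4536 in (+)/(+) clones 4, 5 and 6, against 5900, 1166 and 2546 in (-)/(+) clones 1, 2 and 3, and did not pass (log2 fold change 0.60, adjusted p = 0.47). Cyct, the testis form of cytochrome c (named after its values were seen), had 1253, 2446 and 2947 in the (+)/(+) clones, against 2202, 428 and 771 in the (-)/(+) clones (log2 fold change 1.19, adjusted p = 0.20). Stra8, a gene of meiotic entry, had 1990, 3638 and 2972 in the (+)/(+) clones, against 2987, 1119 and 1563 in the (-)/(+) clones (log2 fold change 0.67, adjusted p = 0.25).

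In each of these 3 genes clone 2 was the lowest. Clone 1 lay within the range of the (+)/(+) clones for Cyct and Stra8 and above it for Dazl. Without clone 1, Cyct (1.83, adjusted p = 0.019) and Stra8 (1.06, adjusted p = 0.035) passed, and Dazl (1.19, adjusted p = 0.059) did not. Across all the fits with 1 clone left out, the log2 fold change fell to as little as 0.67 for Cyct, 0.36 for Stra8 and 0.03 for Dazl. The adjusted p from limma rose in these fits to as much as 0.46, 0.52 and 0.97. Tex19.1, which acts against retrotransposons in germ cells, had 2646, 2424 and 2515 in the (+)/(+) clones, against 3820, 1108 and 1750 in the (-)/(+) clones (log2 fold change 0.37, adjusted p = 0.56), and it lies on chromosome 11, where the 14 nearest genes were shifted by 0.30 in clone 1. Over the list, clone 2 was the lowest of the 6 in 13 of 22 tested genes, against 19.6% of all tested genes.

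**Figure D4:**
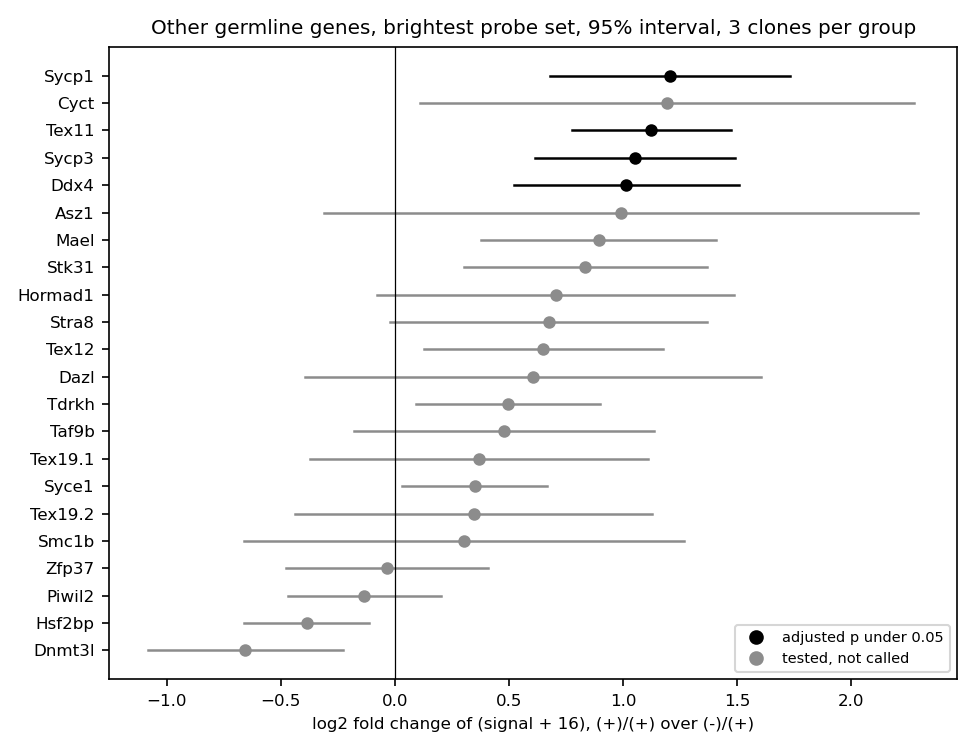
Log2 fold change of signal + 16, (+)/(+) over (-)/(+) (x axis), with the 95% interval from limma, for the 22 tested germline genes outside the members (rows), each by its brightest probe set, 3 clones per group. Black points (Sycp1, Tex11, Sycp3 and Ddx4) passed the test, 18 of 22 points lie right of 0, and Dnmt3l is the lowest at -0.66.

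The E-box of the Slc25a31, Taf7l and Brdt promoters was present in 16 of 41 windows of 32 genes of this list (39%), some of which overlap because a gene can have more than 1 start. These windows too were rich in CpG dinucleotides, with a median of 17. Of the 4 called genes, Ddx4, Sycp1 and Sycp3 had the E-box, and no window was used here for Tex11. Among the tested genes that were not called, Mael, Hormad1, Stk31, Tex12, Taf9b and Dnmt3l had it in a window, and others, such as Dazl and Stra8, did not. Whether the E-box goes with the calls was not tested.

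In 2 genes of the list all (+)/(+) clones lay below all (-)/(+) clones, and neither passed. Hsf2bp, a meiotic recombination gene named after its values were seen, had 899, 906 and 901 in (+)/(+) clones 4, 5 and 6, against 1240, 1303 and 1029 in (-)/(+) clones 1, 2 and 3 (log2 fold change -0.39, 95% interval -0.66 to -0.11, adjusted p = 0.11). Dnmt3l, a catalytically inactive partner of the de novo methyltransferases, had 2383, 1784 and 1679 in (+)/(+) clones 4, 5 and 6, against 2498, 4152 and 2716 in (-)/(+) clones 1, 2 and 3. It was highest in clone 2, in which most of the members were lowest, and the group difference did not pass (log2 fold change -0.66, adjusted p = 0.090).

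Dnmt3l also belongs to the DNA methylation machinery, which writes, copies, reads and removes the mark. Of 17 such genes, 14 were tested, 0 were higher and 1, Uhrf1, was lower in the (+)/(+) iPSCs, with a median log2 fold change of -0.22. Over all tested genes 1.55% were higher and 1.41% lower, with a median of -0.05. Uhrf1, which brings Dnmt1 to freshly replicated DNA, had 5516, 5348 and 5161 in (+)/(+) clones 4, 5 and 6, against 6656, 8248 and 7319 in (-)/(+) clones 1, 2 and 3. The groups did not overlap and clone 2 was the highest (log2 fold change -0.47, standard error 0.10, adjusted p = 0.036). The call was lost when any clone but clone 1 was left out, and after scaling to a common median (log2 fold change -0.31, adjusted p = 0.13), and the other Uhrf1 probe set did not pass (log2 fold change -0.32, adjusted p = 0.15).

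Dnmt1, the maintenance methyltransferase, had 2931, 2839 and 2737 in (+)/(+) clones 4, 5 and 6, against 3554, 3848 and 3717 in (-)/(+) clones 1, 2 and 3. The groups were apart, and the fit lay just outside the threshold (log2 fold change -0.38, adjusted p = 0.053). Tet1, which oxidises methylated cytosine, had a log2 fold change of -0.39 (adjusted p = 0.14), and Dnmt3b, a de novo methyltransferase, of -0.20 (adjusted p = 0.45). Whether these differences bear on the members was not tested.

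Of 19 genes of the PRC1.6 complex and of histone H3K9 repressors of germline genes, 18 were tested and 0 were called by limma in either direction. Their median log2 fold change was 0.02. An unadjusted limma p under 0.05 was found in 5 of the 18, beside 2333 of the 11177 tested genes. The E-box and E2F binding subunits had log2 fold changes of -0.21 (Mga), 0.16 (Max) and -0.15 (E2f6). The brightest were the corepressor Trim28 (log2 fold change -0.11, 95% interval -0.29 to 0.06), the deacetylases Hdac1 (0.05, -0.15 to 0.25) and Hdac2 (0.22, 0.00 to 0.45) and the ATPase Morc3 (0.20, 0.01 to 0.38). In 4 genes of the list all (+)/(+) clones lay below all (-)/(+) clones and in 2 above, beside 15.8% and 10.5% of all tested genes. The most negative, named after their values were seen, were the H3K9 methyltransferase Ehmt2 (log2 fold change -0.51, 95% interval -0.81 to -0.21, adjusted p = 0.071) and Atf7ip, a partner of Setdb1 (-0.45, 95% interval -0.73 to -0.16, adjusted p = 0.085).

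The somatic counterparts of the members were examined in the same way. Of 15 listed, 10 were tested, 2 were higher and 0 lower, beside 1.55% and 1.41% of the 11177 tested genes. In 4 of the 10 all (+)/(+) clones lay above all (-)/(+) clones and in 0 below, beside 10.5% and 15.8% of tested genes. Taf7, the ubiquitous paralogue of Taf7l, had 5328, 4900 and 4586 in (+)/(+) clones 4, 5 and 6, against 3366, 3521 and 3892 in (-)/(+) clones 1, 2 and 3 (log2 fold change 0.46, adjusted p = 0.041). This call was lost whichever clone was left out, another Taf7 probe set was called too (log2 fold change 0.47, adjusted p = 0.026), and the dimmest was not (0.07, adjusted p = 0.86).

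Brd2, a BET family relative of Brdt that most cells express, had 7564, 5954 and 6546 in the (+)/(+) clones, against 5014, 3855 and 4491 in the (-)/(+) clones (log2 fold change 0.59, adjusted p = 0.036), while its other probe set did not pass (0.29, adjusted p = 0.16). The Brd2 call stood without clone 1 and was lost when any other clone was left out, with adjusted p up to 0.14. For the ubiquitous ADP/ATP carriers the interval of the brightest probe set lay wholly below that of Slc25a31. Slc25a5 had a log2 fold change of -0.02 (95% interval -0.20 to 0.16, and 0.14 after scaling to a common median) and Slc25a4 of 0.25 (95% interval -0.02 to 0.51). Of the other bright Slc25a4 probe sets, 1 had 0.23 with overlapping groups. The other had 0.34 (95% interval 0.09 to 0.59, adjusted p = 0.12 from limma), with groups that did not overlap. Slc25a4 is a chromosome 8 gene and was brightest in clone 4, which had the shift of that chromosome.

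Markers of other cells were read for the whole series, with calls to be set beside 1.55% higher and 1.41% lower over all tested genes. All 15 pluripotency markers were tested and 1 was called (Fbxo15, higher), with a summed signal of 152164 to 161917 among the (+)/(+) clones and 138319 to 145037 among the (-)/(+) clones. The brightest genes weigh most in such a sum. The markers went both ways, with 8 of the 15 above 0 and a median log2 fold change of 0.10. Of 15 spermatogenic markers, 2 were bright enough to be tested and 0 passed, with sums of 359 to 469 among the (+)/(+) clones and 404 to 489 among the (-)/(+) clones, and the protamine gene Prm1 ranged over 9.85 to 19.9 among the (+)/(+) clones and 8.47 to 37.1 among the (-)/(+) clones. Sertoli and Leydig cell markers (3 tested) and trophectoderm markers (6 tested) gave 0 calls, and of 8 tested endoderm markers 1 was lower (Sparc). Most genes of both testis lists thus lay below the filter, while 22 of the 28 germline genes above passed it.

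Other groups of genes did move with the groups, again beside 1.55% higher and 1.41% lower over all tested genes. Of 21 listed genes of 2-cell-like cells, only 9 had a probe set of their own, and all 9 were tested. Of these, 6 were higher in the (+)/(+) iPSCs, and clone 2 was the lowest in 8 of the 9. The summed signals were 27920 to 36229, against 4693 to 10094 in the (-)/(+) clones. The study had already reported higher 2-cell genes, AF067061 and Tcstv1 among them, from these same arrays, so the count is no independent evidence. The brightest of the 6 were AF067061 (log2 fold change 2.11, adjusted p = 0.0032), Usp17la (2.04, 0.0032), Tcstv1 (2.39, 0.0079) and Tcstv3 (2.56, 0.0079), which come from families of near-identical copies. Of 18 tested fibroblast and feeder cell markers 7 were lower, with sums of 20221 to 23519 in the (+)/(+) clones, against 30254 to 40230 in the (-)/(+) clones. The brightest of the 7 were Vim (log2 fold change -0.87, adjusted p = 0.011), S100a6 (-0.73, 0.019), Col1a2 (-1.58, 0.0043) and Acta2 (-0.81, 0.036), while Fn1, also bright, did not pass (-0.40, 0.076). Of these calls, that of Vim was lost without clone 6, that of S100a6 when clone 3, 4, 5 or 6 was left out, and that of Acta2 when any clone but clone 1 was left out. In bulk RNA fewer cells that express a gene and less RNA per cell cannot be told apart, and the part of either group of cells in the values of Slc25a31, Taf7l and the other members was not tested.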

How the data were processed

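RNA of 6 iPSC clones (3 per group, 1 array each) was labelled and hybridised by the authors to Affymetrix Mouse Genome arrays. They deposited MAS 5.0 signal intensities, 1 linear value per probe set, with a mean of 500.0 on each array once the highest and lowest 2% were trimmed. Of 45101 probe sets, 64 controls were left out. The platform annotation gives the others 1 gene symbol (34945), several (932) or none (9160). Signals entered as log2(signal + 16), not normalized again. Probe sets above the median mean log2 value were fitted on group alone in limma 3.58.1 (lmFit and trended eBayes, under R 4.3.3), with Benjamini-Hochberg adjustment over all of them. The procedure was tested on simulated data. Lists took the brightest probe set of a gene. Values below the filter got an exact permutation test on signals.

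The members and gene lists were chosen with earlier results of these data known. Named are the members, the called genes and up to 4 of the brightest of each pathway list, up to 4 called genes and some of the brightest of the marker lists, and the 3 most alike profiles per tested member. Rhox13, E2f6, Mga, Max, Tuba3b and Prm1 are given for their role, and genes chosen after their values were seen are marked so. The clones are separate isolates, so p-values set the group difference against the spread between clones. Whether the clones of a group came from separate transductions is not stated, so variation between reprogramming runs may not be covered. No source used here gives scan dates or batches of hybridisation, and a batch aligned with the groups cannot be told apart from them.

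Alternatives were another normalization (quantile, or a common median), another pseudocount (1 or 64), another filter (none, or a signal above 500), untrended eBayes, arrayWeights, the methods' t-test with a 2.5-fold minimum (and, added later, with their minimum signal of 500), averaged probe sets per gene, and each clone left out. Promoters came from RefSeq (GRCm38.p6), with windows for 6 of the 8 genes. Python 3.11.15 with matplotlib 3.10.9 drew the figures.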

Additional observations from a re-analysis of the deposited data

How the results depend on the processing

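The direction of Slc25a31, Taf7l, Rhox5, Rhox6 and Rhox9 was the same under every alternative run. Slc25a31 (log2 fold change 1.31) did not pass with no filter (adjusted p = 0.065), with untrended eBayes (0.060) or in the methods' t-test after Benjamini-Hochberg (0.21). Taf7l (0.89) did not pass with no filter (0.077), with untrended eBayes (0.059) or in the methods' t-test, where its fold was below 2.5 (0.19 after Benjamini-Hochberg). With 1 clone left out, the log2 fold change ranged from 1.04 to 1.5 for Slc25a31, 0.74 to 1.05 for Taf7l, 0.30 to 1.41 for Rhox5, 0.65 to 0.98 for Rhox6 and 0.12 to 0.66 for Rhox9. It ranged from -0.25 to 1.07 (brightest), -0.57 to 0.42 (middle) and -0.45 to 0.43 (dimmest) for the Brdt probe sets and from -0.40 to 0.60 for Tex101. For the Tuba3 probe sets it ranged from -0.043 to 0.52 and from -0.20 to 0.62, for Tex19.1 from -0.034 to 0.85 and for Slc25a5 from -0.081 to 0.038. The sign of Brdt also turned with all clones kept, for the middle probe set to 0.030 after quantile normalization, 0.031 with a common median and 0.050 with arrayWeights, and for the dimmest to 0.044, 0.026 and, at a pseudocount of 64, 0.00019. Slc25a5 turned to 0.14 with a common median and to 0.015 with averaged probe sets. The cause was not tested.

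The member probe sets called higher numbered 0 with no filter, 0 above a signal of 500 (where neither called gene is tested), 0 with untrended eBayes, 1 (Slc25a31) in the methods' t-test with the fold minimum alone and 0 after Benjamini-Hochberg, and 0 to 3 with 1 clone left out (3 without clone 1, when Rhox5 joined). For the other germline genes the count of higher calls was 1 with no filter, 1 with untrended eBayes, 9 with arrayWeights, 0 in the methods' t-test before and after Benjamini-Hochberg, and 0 to 9 with 1 clone left out, and 1 was lower with arrayWeights. Over all tested probe sets the counts were 917 higher and 238 lower with a common median, 101 and 120 with no filter, 87 and 178 with untrended eBayes, 1015 and 1512 with arrayWeights, 59 and 40 in the methods' t-test and 0 and 0 after Benjamini-Hochberg. The lower count was 255 after quantile normalization and 165 above a signal of 500, and 27 to 446 higher and 25 to 515 lower were found with 1 clone left out. No paired analysis was possible because neither the labels nor the study match a (+)/(+) clone (4 to 6) to a (-)/(+) clone (1 to 3). With the minimum on the mean signal that the methods also set, added after seeing the data, their t-test called 31 probe sets higher and 5 lower, of which 0 were members or other germline genes, and 0 and 0 after Benjamini-Hochberg. The number of arrays limits the precision.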

Other observations

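Dppa3 (Stella), a maternal factor known to protect DNA from methylation and to hinder Uhrf1, was looked at after its values were seen. Its signal was 2439, 3271 and 4584 in (+)/(+) clones 4, 5 and 6, against 5759, 672 and 1938 in (-)/(+) clones 1, 2 and 3. It lies on chromosome 6, where the 20 nearest genes were shifted by 0.34 in clone 1 and 0.15 in clone 2. As for Rhox5 and Brdt, clone 1 was the highest and clone 2 the lowest of the 6, and the group difference did not pass (log2 fold change 0.75, 95% interval -0.53 to 2.04, adjusted p = 0.49 from limma). The keratin gene Krt18 of the trophectoderm list, also chosen after its values were seen, had 972, 674 and 571 in the (+)/(+) clones, against 522, 260 and 400 in the (-)/(+) clones. Clone 2 was the lowest again and the groups did not overlap, but the difference did not pass (log2 fold change 0.90, adjusted p = 0.079 from limma). Of 6 tested genes of that list 4 were above 0, while Eomes (-0.13) and Ascl2 (-0.29) were below. Cdx2, which did not reach the filter, had 55.4, 5.40 and 39.9 in the (+)/(+) clones, against 69.7, 82.1 and 96.7 in the (-)/(+) clones.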
